A study of Rattus norvegicus with 16 samples.

Results

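Liver RNA of male Lewis rats was compared between 12 and 9 months of age on 6 microarrays, 3 for each age, out of 16 arrays that covered 3, 9, 12, 18 and 24 months. The 6 are all the arrays labelled with these ages: 9M-1, 9M-2 and 9M-3 for the younger age and 12M-2, 12M-3 and 12M-4 for the older. The comparison and the gene lists were chosen with earlier results of these data known, so the counts below are no independent support. All rats were male and of 1 inbred strain, were kept free of specific pathogens on a light-dark cycle of 12 h each with free access to food and water, with no treatment named, so age is the one labelled difference. Livers were frozen in liquid nitrogen, and the arrays were 1-colour Agilent rat whole-genome arrays with 4 arrays to a slide. The labels give no hour of collection, and do not say whether the samples of an age came from separate animals. The p-values therefore measure only the spread between samples, estimated from all 16 arrays together. In whole liver, fewer cells of a type and less RNA per cell cannot be told apart.

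The liver clock is a feedback loop of transcription factors. BMAL1, joined to CLOCK or NPAS2, activates the period (Per) and cryptochrome (Cry) genes, whose proteins block that activation. BMAL1 also activates Nr1d1 and Nr1d2, which encode the repressors REV-ERB alpha and beta, and these shut off Bmal1, Npas2 and Nfil3, while the related receptor RORA activates them. Output factors of the bZIP class (DBP and TEF) then activate many genes of drug, lipid and hormone metabolism, and NFIL3 competes with them for the same sites. Bmal1 and Npas2 messages therefore peak at the other side of the day from Dbp, the Per genes and the REV-ERB genes, which is why the hour of collection matters for all of them. The labels tie no hour to an age, so age and hour cannot be told apart here.

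The clock genes differed between the ages in both arms of this loop. Of 19 genes on the clock lists, 16 were measured and 13 passed the test, 9 of them higher and 4 lower at 12 months. Over all 21488 genes tested, 1348 passed (6.27%), so 81.2% of the clock genes against 6.27% of all genes were called. Of all genes, 682 were higher (3.17%) and 666 lower (3.1%) at 12 months. Called here means an adjusted p under 0.05 in limma's moderated test with Benjamini-Hochberg adjustment over all genes tested, in a fit that held all 16 arrays. Values are log2 signal minus the array's 75th percentile, so 0 is the level of that percentile and 1 unit is a 2-fold step. Among the clock genes the median log2 change was 1.41 (all genes, -0.01). The other 3 genes of the lists were not analysed here.

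The promoter sequences below carry the short motifs through which the loop's proteins act, and are shown for the called clock genes in which a motif was found. They are the 250 bases before the annotated start, from RefSeq on build GRCr8, read 5′ to 3′ along the gene, with the motif in capitals. These 3 motifs were searched on both strands, and no match overlapped another: the E-box CACGTG, bound by BMAL1 with CLOCK or NPAS2; the D-box TTATGTAA or TTACGTAA, bound by the bZIP factors; and the core TAGGTCA of the element bound by REV-ERB and ROR. Of 33469 promoters of the same length, 5.59% held the E-box, 0.932% the D-box and 2.26% the REV-ERB/ROR core. A promoter was matched for 15 of the 16 measured clock genes (17 windows), of which 4 held an E-box, 1 a D-box, 1 a REV-ERB/ROR element and 9 none of these letters.
Bmal1, chr1:176766078-176766327, plus strand: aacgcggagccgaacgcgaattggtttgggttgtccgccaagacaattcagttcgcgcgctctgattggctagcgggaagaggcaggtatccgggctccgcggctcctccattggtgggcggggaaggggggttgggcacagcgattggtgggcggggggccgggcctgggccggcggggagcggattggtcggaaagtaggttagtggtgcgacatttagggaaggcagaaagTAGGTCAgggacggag
Nr1d1, chr10:84229455-84229704, minus strand: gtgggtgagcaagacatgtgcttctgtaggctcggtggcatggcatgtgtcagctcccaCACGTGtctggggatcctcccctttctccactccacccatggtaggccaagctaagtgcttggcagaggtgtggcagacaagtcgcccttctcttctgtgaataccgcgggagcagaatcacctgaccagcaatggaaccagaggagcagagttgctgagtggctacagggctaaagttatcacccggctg
Bhlhe41, chr4:180569356-180569605, minus strand: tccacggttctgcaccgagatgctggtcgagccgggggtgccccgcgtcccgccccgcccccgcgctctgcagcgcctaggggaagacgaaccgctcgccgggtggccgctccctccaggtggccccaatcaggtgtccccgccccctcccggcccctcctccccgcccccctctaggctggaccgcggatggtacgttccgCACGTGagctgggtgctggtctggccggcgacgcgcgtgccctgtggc
Tef, chr7:115206577-115206826, plus strand: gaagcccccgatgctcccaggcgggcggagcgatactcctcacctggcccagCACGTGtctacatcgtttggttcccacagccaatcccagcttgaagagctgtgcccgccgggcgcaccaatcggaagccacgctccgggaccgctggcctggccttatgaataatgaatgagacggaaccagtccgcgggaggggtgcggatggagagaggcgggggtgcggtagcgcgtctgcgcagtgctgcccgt
Per2, chr9:99496994-99497243, minus strand: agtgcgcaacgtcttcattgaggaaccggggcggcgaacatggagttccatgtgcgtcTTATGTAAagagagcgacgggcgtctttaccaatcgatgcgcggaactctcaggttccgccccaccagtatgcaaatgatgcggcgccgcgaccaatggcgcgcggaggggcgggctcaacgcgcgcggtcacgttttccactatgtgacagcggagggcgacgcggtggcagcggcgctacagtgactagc
The REV-ERB/ROR element of Bmal1 begins 16 bases before the start. The E-boxes begin 191 bases before the start in Nr1d1 (in 1 of its 2 annotated promoters), 48 in Bhlhe41 and 198 in Tef, and the D-box of Per2 begins at 192. The fourth E-box, at 220, lies in Bhlhe40, which was not called. In this set the gene with the REV-ERB/ROR element was lower at 12 months, and the 3 called genes with an E-box and the 1 with a D-box were higher. A match is a description of these letters, not a site that was shown to be used.

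Of the activators, Bmal1, Npas2 and Clock fell. Bmal1 had log2 levels of 2.25, 2.27 and 2.21 on the 9-month arrays and -2.84, -3.0 and -1.17 on the 12-month arrays (12M-2, 12M-3, 12M-4), a change of -4.58 (SE 0.78, adjusted p = 0.00632) or 23.9-fold lower. The 3 arrays at 9 months were nearly equal, and 12M-4 was the highest of the 12-month arrays without reaching them. Npas2, the partner that can replace CLOCK, read 1.48, 1.31 and 1.60 at 9 months and -2.07, -2.27 and -1.67 at 12 months, a change of -3.46 (SE 0.89, adjusted p = 0.0367). When every kept probe was fitted, 1 of the 2 Npas2 probes was called, and the probe not shown here changed by -1.42. Clock itself lay near the lower end of the scale at -2.99, -2.99 and -3.13 and then -3.69, -4.76 and -4.06, a change of -1.13 (SE 0.27, adjusted p = 0.0285), and was not well above background on 1 of the 12-month arrays. With normexp background correction, a model-based subtraction followed by an offset added to every signal, the Clock difference turned to 0.04 (adjusted p = 0.977), so its direction depends on how dim signal was treated. Rora, the activating receptor, read -0.84, -1.08 and -0.75 and then -1.49, -0.94 and -1.59, and its log2 difference of -0.45 (adjusted p = 0.24) did not pass the test.

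The output factors of the bZIP class rose. Dbp had the largest rise among called genes with a symbol that lay above background on all 6 arrays. Dbp read -0.41, -0.55 and -0.11 at 9 months and 5.50, 5.44 and 5.29 at 12 months, 54.4-fold higher, with a log2 change of 5.77 (SE 0.46, adjusted p = 4.89e-05). It went from just under the 75th percentile of the array to among its brighter probes and the groups lay far apart for the small range within each. Tef, its close relative, read -1.77, -1.44 and -1.70 and then 0.58, 0.69 and 0.65, 4.85-fold higher (log2 change 2.28, SE 0.20, adjusted p = 7.07e-05). Nfil3, which represses through the same D-box, moved the other way, from 2.46, 2.51 and 2.36 to 1.06, 0.95 and 0.44, 3.08-fold lower (log2 change -1.63, SE 0.24, adjusted p = 0.00342).

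Among the period and cryptochrome genes, 4 of 5 rose. Per3 was not well above background on any 9-month array, with signals of -6.92, -6.85 and -6.53, and was measured on all 12-month arrays at -2.16, -2.16 and -2.42. It was therefore at least 5.15-fold higher at 12 months, the bright mean set against the lowest signal that stood above background on each 9-month array, with an adjusted p of 2.12e-06. With normexp background correction its log2 change was 1.01 and did not pass (adjusted p = 0.0608). Per1, which responds to glucocorticoids as well as to the clock, went from -3.09, -2.97 and -2.89 to -0.87, -1.54 and -1.86 (log2 change 1.56, SE 0.26, adjusted p = 0.00582), with the highest value on 12M-2. Per2 went from -0.49, -0.99 and -0.07 to 1.62, 1.49 and 0.90 (log2 change 1.85, SE 0.47, adjusted p = 0.0349), and the groups did not overlap. Of the cryptochromes, Cry2 rose from -2.55, -2.93 and -2.58 to -1.25, -1.66 and -1.34 (log2 change 1.27, SE 0.20, adjusted p = 0.00402). Cry1 read 1.11, 1.21 and 1.46 and then 0.77, 0.91 and 1.12, with overlapping groups and a log2 difference of -0.33 that did not pass (adjusted p = 0.565). With normexp the calls of Per1, Per2 and Cry2 ended as well (adjusted p = 0.0934, 0.151 and 0.159).

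The REV-ERB genes rose together. Nr1d1 went from -0.71, 0.08 and -0.73 to 0.97, 1.36 and 1.70 (log2 change 1.80, SE 0.34, adjusted p = 0.00971) and Nr1d2 from -3.70, -3.18 and -3.48 to -0.84, -1.10 and -1.37 (log2 change 2.35, SE 0.24, adjusted p = 0.0003). Bmal1, Npas2 and Nfil3, named above as their targets, fell. Of these only Bmal1 had the REV-ERB/ROR core in its promoter window. Bmal1 had the largest fall among called genes with a symbol that lay above background on all 6 arrays. A link between these changes was not tested. Of the paralogous repressors of the E-box, Bhlhe41 rose and Bhlhe40 did not pass the test. Bhlhe41, also called DEC2, went from -2.03, -2.85 and -2.65 to 2.08, 2.51 and 2.33, 28.2-fold higher (log2 change 4.82, SE 0.41, adjusted p = 7.07e-05). Bhlhe40, also called DEC1, read 2.57, 2.47 and 2.22 and then 1.57, 2.40 and 1.72, a log2 difference of -0.52 (adjusted p = 0.272).

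**Figure D1:**
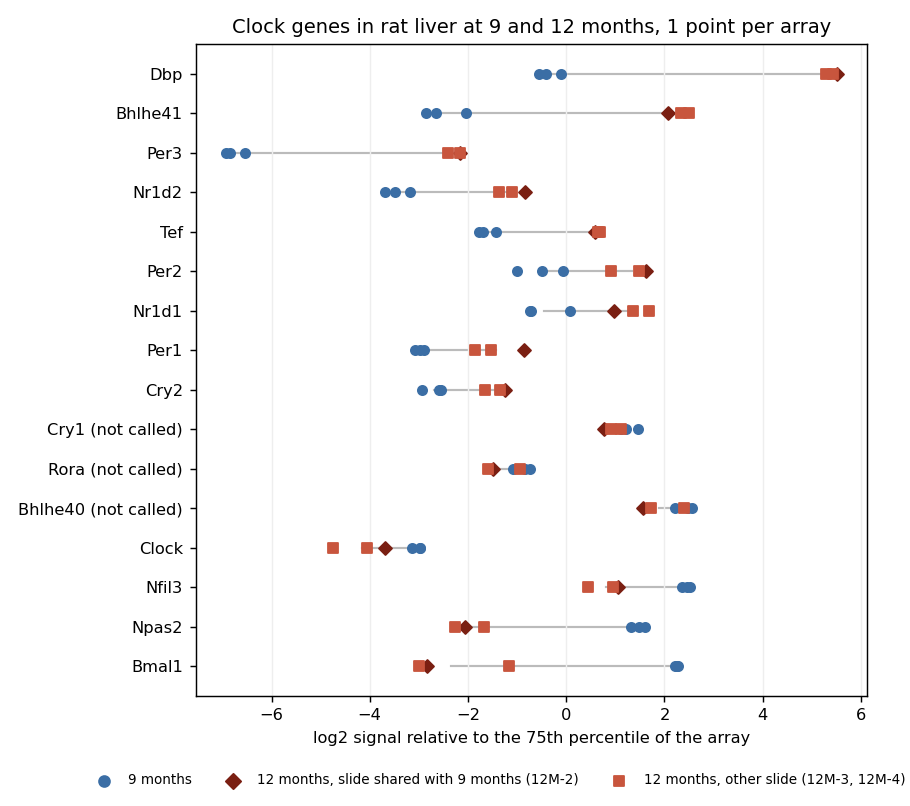
Log2 signal (x axis, relative to the array's 75th percentile) of the 16 measured clock genes, 1 point per array, ordered by their change. Circles are the 9-month arrays, the diamond is 12M-2, which shares a slide with 9M-1 and 9M-3, squares are 12M-3 and 12M-4, and grey lines join the age means. For the 13 called genes the 12-month points lie apart from the 9-month points, from Dbp (5.77) to Bmal1 (-4.58).

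Array 12M-2 was hybridised on the same slide as 9M-1 and 9M-3 and scanned on the same day as all 9-month arrays, whereas 12M-3 and 12M-4 lay on another slide scanned in another year, with the 18-month arrays. Scan session here means scan year, and the session of the 9-month arrays holds 2 scan days, 1 of them for the 24-month arrays alone. Within the shared slide, 12M-2 against 9M-1 and 9M-3 gave log2 differences of 5.76 for Dbp, 4.57 for Per3, 4.42 for Bhlhe41, 2.75 for Nr1d2, -3.61 for Npas2 and -5.07 for Bmal1. These lie close to the values over all 6 arrays, and Clock stood at -0.63. With 1 array at 12 months and 2 at 9 months, the slide alone gives no measure of the spread at 12 months, so these are values and no test. A fit over all arrays with slide as a term gave the same differences as the shared slide, so it too rests on 12M-2 alone at 12 months. With scan session as a term the difference is that of 12M-2 against all 9-month arrays, and Npas2, Clock and Nr1d1 stood at -3.53, -0.65 and 1.42. Neither fit is a separate test, so only differences are given from them. The calls of Per2 and Npas2 ended when any one of the 6 arrays was left out (adjusted p 0.051 to 0.127 for Per2 and 0.0559 to 0.102 for Npas2), and that of Clock when any one but 12M-2 was left out (up to 0.0889). The other 10 clock calls held without each of the 6 arrays. In a fit of these 6 arrays alone Clock, Per1, Per2 and Nr1d1 did not pass (adjusted p = 0.126, 0.0596, 0.051 and 0.0531).

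Among genes that set the clock's pace, Usp2 alone passed the test. Of 10 measured clock regulators (kinases, ubiquitin ligase parts and RNA-binding proteins), 1 was called (10% against 6.27% of all genes) and the median log2 change was 0.07. Usp2, a deubiquitinase that acts on clock proteins and is itself under clock control, went from -1.41, -1.43 and -0.54 to 2.50, 2.42 and 2.26, 11.5-fold higher (log2 change 3.52, SE 0.59, adjusted p = 0.00582). The casein kinase genes Csnk1d and Csnk1e had log2 differences of -0.51 (adjusted p = 0.0965) and -0.56 (adjusted p = 0.262). Wee1 and Nampt, which clock factors are known to drive, stood at 1.0 and 1.39 (adjusted p = 0.195 and 0.197) and did not pass.

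**Figure D2:**
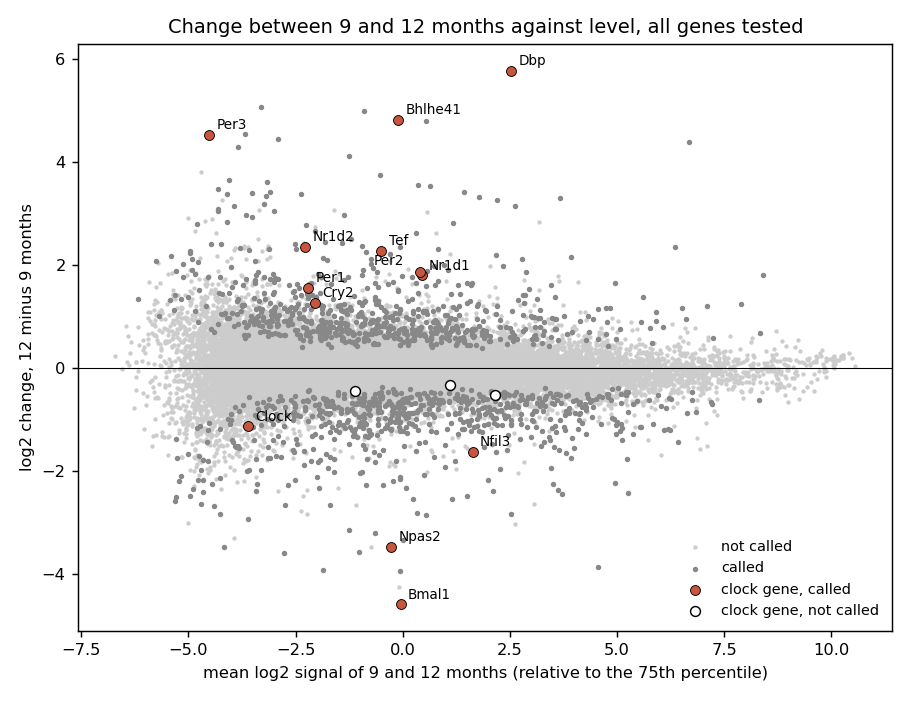
Log2 change from 9 to 12 months (y axis) against the mean log2 signal of both ages (x axis) for the 21488 genes tested. Light points were not called, dark points were called, filled circles are the 13 called clock genes and open circles the 3 that were not called. Dbp and Bhlhe41 lie at the upper edge and Bmal1 at the lower edge of the cloud.

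The levels at the other ages do not enter the difference between 12 and 9 months and show where each age lies between the pair. At 3 months the mean of 11 of the 13 called clock genes was nearer to the 9-month mean, the exceptions being Per1 and Nr1d2. At 18 months all 13 were nearer to the 12-month mean, and at 24 months 11 were, the exceptions being Nfil3 and Nr1d1. Over all 1348 called genes, the mean was nearer to the 12-month mean in 36.8% at 3 months, 90.0% at 18 months and 62.6% at 24 months. At 3 months Nr1d1 lay almost midway (0.44, against -0.46 at 9 and 1.34 at 12 months). The 9-month mean is common to these counts. The 3-month arrays were scanned on the day of the 9-month arrays and shared a slide with 9M-2, and the 18-month arrays were scanned with 12M-3 and 12M-4. The 24-month arrays were scanned on a day of their own. The part of scan day and slide in these counts was not tested.

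Dbp shows the pattern. From the youngest to the oldest age its mean was -0.59 ± 0.40, -0.36 ± 0.22, 5.41 ± 0.11, 4.75 ± 0.55 and 4.11 ± 1.02 (SD, n = 3 for each age but the oldest, which had 4). Bmal1 was its mirror image, with 2.23 ± 0.11, 2.24 ± 0.03, -2.34 ± 1.01, -2.49 ± 1.74 and -1.13 ± 1.18 in the same order. For both genes the arrays of 3 and 9 months overlapped, as did those of 18 and 24 months, and the older ages spread more widely. Npas2 had means of -2.0, -2.98 and -4.32 at 12, 18 and 24 months, but only 2 of 3 arrays at 18 months and 2 of 4 at 24 months had it well above background, so its levels there have no settled order.

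Other genes had a 9-month level apart from those at 3 and 12 months, low at 9 months for Igfbp1 and Egr1. Igfbp1, which binds insulin-like growth factors and is shut off by insulin, had means of 5.30, 1.05, 4.20, 3.96 and 5.31 from 3 to 24 months. The early response gene Egr1 had means of 2.27, -0.23, 2.59, 2.09 and 3.12. All 7 called early response genes, and 7 of the 9 called glucocorticoid response genes, had a 3-month mean nearer to the 12-month than to the 9-month mean. Of the early response genes 6 were lower at 9 than at 12 months and 1, Jund, was higher. For the genes so counted the difference between 9 and 12 months thus ran back toward the 3-month level. Of the 13 called clock genes, 11 had a 3-month mean nearer to the 9-month mean. The other 2 were Nr1d2 and Per1, which is also on the glucocorticoid list.

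**Figure D3:**
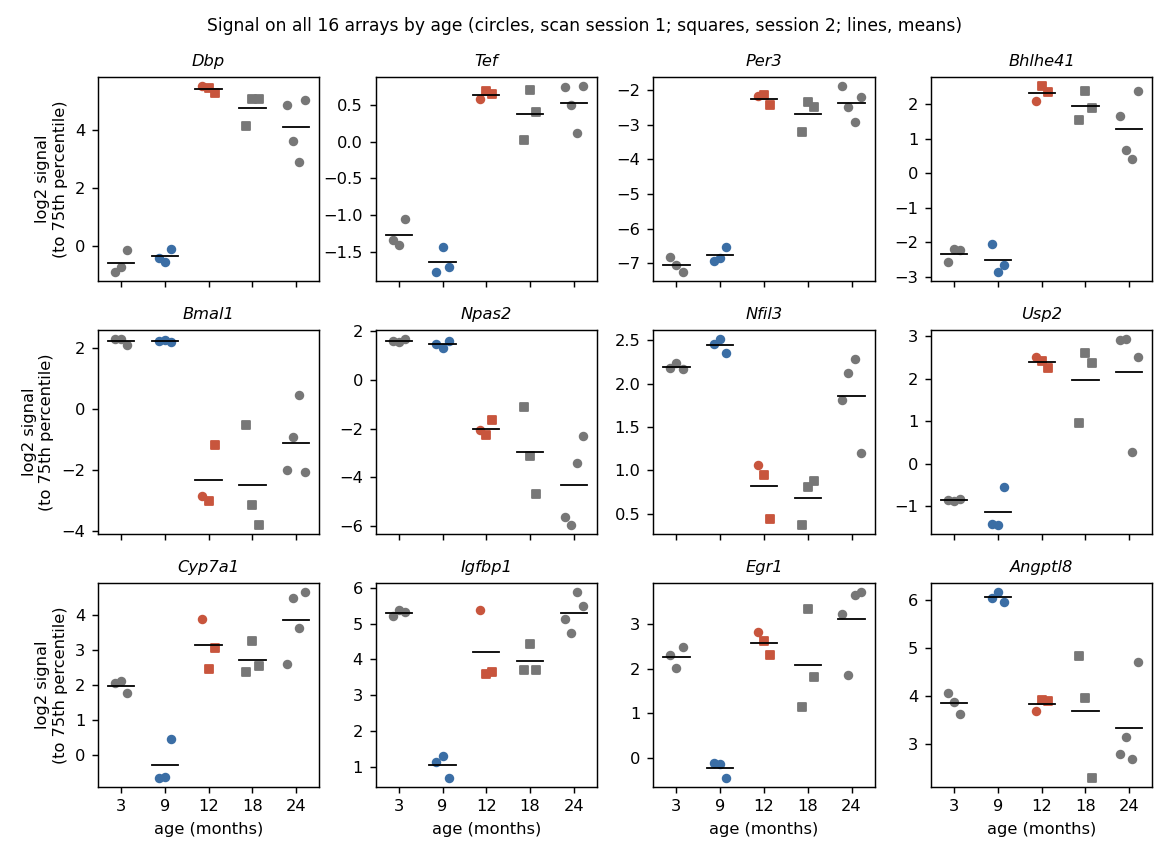
Log2 signal (y axis, relative to the 75th percentile) of 12 genes on all 16 arrays by age in months (x axis). Points are arrays, circles for scan session 1 (2 scan days of 1 year, the 24-month arrays on a day of their own) and squares for session 2 (another year), blue for 9 and red for 12 months, and lines are means. Dbp, Tef, Per3, Bhlhe41, Bmal1 and Npas2 hold their 9-month level at 3 months, whereas Cyp7a1, Igfbp1, Egr1 and Angptl8 stand apart at 9 months.

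Among genes known to respond to glucocorticoids, more rose than fell. Of 20 measured, 9 were called, 7 higher and 2 lower (45% against 6.27% of all genes), with a median log2 change of 0.40. Besides Per1, the metallothioneins rose, with Mt1 from 8.24, 7.31 and 6.97 to 10.02, 8.92 and 8.99 (log2 change 1.80, SE 0.44, adjusted p = 0.03) and Mt2A by 2.34 (SE 0.59, adjusted p = 0.0345). So did Fkbp5, a co-chaperone of the glucocorticoid receptor, from 0.97, 0.93 and 0.75 to 2.50, 1.66 and 2.25 (log2 change 1.25, SE 0.23, adjusted p = 0.00766), and Tsc22d3, Klf9 and Nfkbia (1.32, 0.94 and 1.03). Pdk4, which blocks pyruvate oxidation, and Sgk1 fell (-1.60 and -1.19). Tat, a classical target, had a log2 difference of 0.35 (adjusted p = 0.773). The count of 9 fell to 4, 2 and 3 without 9M-1, 9M-2 and 9M-3, to 4 and 5 without 12M-2 and 12M-4, and to 0 with normexp background correction. The calls of Mt1 and Mt2A ended without 9M-2, 9M-3, 12M-2 or 12M-4 (adjusted p up to 0.112 and 0.124), and that of Pdk4 without 9M-1 or 9M-2 (up to 0.0595).

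Early response genes split. Of 23 measured, 6 rose and 1 fell (30.4% against 6.27% of all genes), with a median log2 change of -0.01. Egr1 went from -0.12, -0.13 and -0.44 to 2.83, 2.63 and 2.31 (log2 change 2.82, SE 0.51, adjusted p = 0.00761), Gadd45b from -0.01, -0.05 and -0.03 to 2.95, 1.62 and 1.35 (log2 change 2.0, SE 0.35, adjusted p = 0.00715), and Zfp36, which destabilises inflammatory messages, from -2.22, -2.16 and -2.13 to -0.64, -0.21 and -0.37 (log2 change 1.76, SE 0.22, adjusted p = 0.0012). The count of 7 fell to 4 without 9M-1 and with normexp background correction. Junb, Ier3 and Klf6 rose by 1.87, 0.99 and 0.96, and Jund fell (-0.95). Fos and Jun, the best known members, had log2 differences of 0.40 and 0.66 that did not pass (adjusted p = 0.778 and 0.402).

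Genes of fatty acid and cholesterol synthesis were lower at 12 months where they passed. Of 24 measured for fatty acid synthesis 6 fell and none rose (25% called, median log2 change -1.07). Of 26 for cholesterol synthesis and uptake 7 fell and none rose (26.9%, median -0.72). Over all genes 6.27% were called. The desaturase Fads1 went from 4.66, 5.11 and 4.54 to 3.1, 3.37 and 3.20 (log2 change -1.55, SE 0.25, adjusted p = 0.00428). Me1, an enzyme that supplies NADPH, fell by 1.34, adjusted p = 0.00362, and the elongase Elovl5 by 1.07, adjusted p = 0.00904. Dhcr7, the last step to cholesterol, went from 4.84, 4.76 and 4.81 to 3.67, 2.93 and 2.56 (log2 change -1.75, SE 0.31, adjusted p = 0.00729). Pmvk, Tm7sf2 and Nsdhl of the same pathway changed by -1.51, -1.21 and -0.78. The calls of Fads1, Elovl5 and Nsdhl ended with normexp (adjusted p 0.0519 to 0.182).

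For several genes of fat synthesis the 12-month arrays parted from each other. The lipase gene Pnpla3, a target of the lipogenic factors, read 1.93, 2.04 and 2.17 at 9 months, and 0.52 on 12M-2, -4.23 on 12M-3 and -2.87 on 12M-4. Pnpla3 was well above background on only 2 of the 3 arrays at 12 months. Its -4.23 on 12M-3 lies near the lowest signal that stood above background there (-4.25). Its log2 difference of -4.24 did not pass (adjusted p = 0.0625). Fasn, the fatty acid synthase, read 7.82, 7.71 and 8.01 at 9 months and 7.77, 5.16 and 6.07 at 12 months (log2 difference -1.52, adjusted p = 0.296), so that 12M-2 lay within the 9-month range. Within the shared slide Dhcr7 and Pmvk stood at -1.16 and -1.0, Tm7sf2 at -0.68 and Nsdhl at -0.50, smaller than over all arrays. For cholesterol the 7 calls became 3 when any one 9-month array or 12M-4 was left out, 4 without 12M-3 and 10 without 12M-2, and the call of Tm7sf2 ended when any one array but 12M-2 was left out (adjusted p up to 0.0933).

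Of 32 genes of fatty acid oxidation and ketogenesis 3 rose and 1, Pdk4, fell (12.5% against 6.27% of all genes). Ppara, the receptor that drives the pathway, rose from -0.01, -0.17 and -0.06 to 1.18, 0.94 and 0.98 (log2 change 1.11, SE 0.25, adjusted p = 0.0198). Its coactivator gene Ppargc1a rose by 1.29, adjusted p = 0.0312, and Decr1, of unsaturated fatty acid breakdown, by 0.94, adjusted p = 0.0319. The calls of Ppara and Decr1 ended when any one 9-month array was left out (up to 0.0695 and 0.12), that of Decr1 also without 12M-3 or 12M-4, and that of Ppargc1a without 9M-2, 9M-3, 12M-2 or 12M-4 (up to 0.114). All 3 calls also ended with normexp (adjusted p 0.148 to 0.685). Within the shared slide Ppara, Ppargc1a and Decr1 stood at 1.22, 1.36 and 0.66.

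Bile acid, glucose and insulin genes held some of the largest single changes, while most members of those lists did not pass. Cyp7a1, the rate-limiting enzyme of bile acid synthesis and a known clock output, went from -0.65, -0.65 and 0.46 to 3.90, 2.45 and 3.06 (log2 change 3.42, SE 0.50, adjusted p = 0.00299). Nr1h4, the bile acid receptor FXR, fell by 0.79, adjusted p = 0.00383, and Abcg5, a sterol exporter, rose by 1.77, adjusted p = 0.0472. The other 17 of 20 measured did not pass, so 15% were called against 6.27% of all genes. Pck1 and Gys2, of glucose output and glycogen synthesis, rose by 1.17, adjusted p = 0.00493, and by 1.21, adjusted p = 0.00634. Fbp2 rose by 1.29, adjusted p = 0.019 (3 of 23 glucose genes called, 13%, all higher). Igfbp1 went from 1.13, 1.31 and 0.71 to 5.37, 3.59 and 3.64, 8.87-fold higher (log2 change 3.15, SE 0.41, adjusted p = 0.00143), with its highest value on 12M-2. With normexp the calls of Nr1h4, Abcg5, Pck1, Gys2 and Fbp2 ended (adjusted p 0.0636 to 0.262). With slide as a term Abcg5 and Fbp2 stood at log2 differences of 1.837 and 1.204.

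Of 23 measured genes of the growth hormone, IGF and insulin axis 2 rose and 2 fell (17.4% against 6.27% of all genes, median log2 change -0.10). Irs3 and Angptl8, described with them, were named for the size of their fall. Irs2, an insulin receptor substrate that fasting raises in liver, rose by 1.46, adjusted p = 0.0392, and its rodent relative Irs3 went from 0.96, 0.80 and 0.49 to -1.46, -4.06 and -2.90 (log2 change -3.56, SE 0.66, adjusted p = 0.00866). Angptl8, a secreted inhibitor of lipoprotein lipase that insulin induces, went from 6.05, 6.17 and 5.97 to 3.70, 3.92 and 3.90 (log2 change -2.23, SE 0.55, adjusted p = 0.0325). Socs2, which growth hormone induces and which dampens its signal, went from 2.08, 2.13 and 1.48 to -2.93, -0.72 and -2.47, 15.3-fold lower (log2 change -3.93, SE 0.84, adjusted p = 0.0165), and Stat5b fell by 1.08, adjusted p = 0.011. When every kept probe was fitted, 1 of the 3 Irs2 probes was called, and their log2 differences ran from 0.86 to 1.46. Igf1 had a log2 difference of 0.11 (adjusted p = 0.758). The calls of Abcg5, Irs2 and Angptl8 ended when any one of the 6 arrays was left out (adjusted p up to 0.151, 0.13 and 0.0974), that of Socs2 without 9M-1, 9M-2 or 12M-4 (up to 0.0602), that of Fbp2 without 9M-2 or 9M-3 (up to 0.0784) and that of Stat5b without 9M-2 (0.0512). Those of Irs2, Angptl8 and Stat5b ended with normexp (adjusted p 0.0739 to 0.253). With slide as a term Irs2, Irs3 and Angptl8 stood at log2 differences of 1.502, -2.19 and -2.315. With scan session as a term they stood at 1.621, -2.214 and -2.368.

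Of genes that are known to differ between the sexes in rat liver, 2 of 15 male-biased genes rose and none fell (13.3% against 6.27% of all genes), while the median of the 15 was -0.23 and 4 of them had a difference above 0. Of 11 female-biased genes 1 rose, the sulfotransferase gene Sult2a6 (log2 change 0.90, SE 0.17, adjusted p = 0.01), with a median of 0.00. Among the male-biased genes, Hsd17b2, which oxidises oestradiol and testosterone, went from 4.48, 4.33 and 4.68 to 8.78, 9.19 and 8.67, 20.9-fold higher (log2 change 4.38, SE 0.90, adjusted p = 0.0138). The protease inhibitor gene Spink3 went from 0.96, 1.35 and 0.91 to 3.0, 3.1 and 3.70 (log2 change 2.19, SE 0.28, adjusted p = 0.00135). Cyp2c11, the main male cytochrome, had a log2 difference of -0.60 (adjusted p = 0.402). In drug metabolism Por, which passes electrons to all microsomal cytochromes P450, rose by 1.86, adjusted p = 0.0125, and the pregnane X receptor gene Nr1i2 by 1.14, adjusted p = 0.0298. Cyp3a9 and Ugt2b1 fell by 1.02 and 1.08. The call of Hsd17b2 ended without 9M-2 (adjusted p = 0.0515), that of Por without 9M-1 (0.0534), those of Nr1i2 and Ugt2b1 when any one 9-month array or 12M-4 was left out, for Nr1i2 also 12M-2 (up to 0.103 and 0.0736), and that of Cyp3a9 when any one of the 6 was (up to 0.119). With normexp the calls of Hsd17b2, Sult2a6, Por, Nr1i2, Cyp3a9 and Ugt2b1 ended (adjusted p 0.0648 to 0.441). Within the shared slide Cyp3a9 and Ugt2b1 stood at -1.19 and -0.65.

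Among other genes with the largest changes, Upp2, a liver uridine phosphorylase, went from -1.25, -1.12 and -1.87 to 2.25, 1.53 and 2.64, 11.7-fold higher (log2 change 3.55, SE 0.50, adjusted p = 0.0022). Chka, the choline kinase that opens phosphatidylcholine synthesis, went from 1.09, 0.71 and 1.07 to -2.09, -2.35 and -2.31, 9.24-fold lower (log2 change -3.21, SE 0.37, adjusted p = 0.000632). Cth, which makes cysteine from cystathionine, went from 4.66, 4.88 and 4.36 to 2.09, 2.37 and 2.70 (log2 change -2.25, SE 0.28, adjusted p = 0.00132). In each of these 3 genes the 12-month arrays lay closer to one another than to any 9-month array. The tubulin gene Tubb6 and the adhesion gene Nectin2 fell by 2.54, adjusted p = 0.000806, and by 2.28, adjusted p = 0.000507. Onecut1, a hepatocyte transcription factor also called HNF6, fell by 2.43, adjusted p = 0.0405, and that call ended when any one array but 12M-3 was left out (up to 0.128) and with normexp (0.151). C1qtnf3, which encodes a secreted relative of adiponectin, rose by 2.98, adjusted p = 0.0277, yet on 12M-2 its level was -1.83 against 0.83 and 1.34 on the other 12-month arrays and -2.63, -2.55 and -3.41 at 9 months, and the call ended when any one array but 12M-2 was left out (up to 0.0973).

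Within the slide that both ages share, 12M-2 against 9M-1 and 9M-3 gave log2 differences of 4.0 for Cyp7a1, 4.45 for Igfbp1, 3.11 for Egr1, 4.20 for Hsd17b2, 3.81 for Upp2, -3.17 for Chka, -4.71 for Socs2 and -2.31 for Angptl8, again as values with no test. Irs3 and C1qtnf3 stood at -2.19 and 1.19, smaller than over all arrays by more than 1.5 times, and Mt1 and Mt2A at 2.41 and 2.63. A fit over all arrays with slide as a term gave these same differences and is no separate test. With normexp background correction 60 of the 97 named calls ended and Clock turned.

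A few genes were well above background on all arrays of 1 of these 2 ages and on none of the other. Rnf186, a ubiquitin ligase gene, and Colq, the collagen tail of acetylcholinesterase, were at least 14.3-fold and at least 9.25-fold higher at 12 months (adjusted p = 0.0176 and 0.0444). Adora2b, an adenosine receptor gene, and Gpr39, a zinc-sensing receptor gene, were at least 4.13-fold and at least 1.92-fold lower at 12 months (adjusted p = 0.000576 and 0.00452), and Ska1, of the mitotic spindle, at least 1.6-fold lower (adjusted p = 0.0326). Of the genes with a bound here, Rnf186 was above background on all arrays of the other 3 ages, and Adora2b, Gpr39 and Ska1 on all 3 arrays at 3 months. All 5 calls ended with normexp, under which the log2 differences of Adora2b, Gpr39 and Ska1 were -0.28, -0.01 and -0.12 (adjusted p = 0.938, 0.994 and 0.944) and those of Rnf186 and Colq 1.72 and 1.32 (0.425 and 0.46). Within the shared slide Rnf186, Colq and Ska1 stood at log2 differences of 3.41, 3.48 and -1.17, with the signal of 1 age not above background. The call of Rnf186 ended without 9M-2 or 9M-3 (up to 0.072), and those of Colq and Ska1 when any one array but 12M-2 was left out (up to 0.127 and 0.107).

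Of 36 measured cell cycle genes 6 fell and 1, Ccne1, rose (19.4% against 6.27% of all genes, median log2 change -0.43). Cdk1, the mitotic kinase, went from 1.48, 0.80 and 0.75 to -1.30, -0.60 and -1.43 (log2 change -2.12, SE 0.47, adjusted p = 0.0202), and Top2a and Ccna2 changed by -2.38 and -1.70, each dim at 12 months. Ccne1, the G1 cyclin, rose from -1.85, -2.09 and -1.59 to 0.18, 0.31 and -0.59 (log2 change 1.81, SE 0.33, adjusted p = 0.0079), and Mcm10, a gene of replication start that was not on the list, rose by 2.50, adjusted p = 0.0139. Cdkn1a, the cyclin-dependent kinase inhibitor p21, went from 4.68, 5.21 and 4.90 to 1.17, 3.45 and 2.82, 5.46-fold lower (log2 change -2.45, SE 0.46, adjusted p = 0.00892). Cdkn1a did not pass in the fit of the 6 arrays alone (adjusted p = 0.107). Mki67, a general proliferation marker, had a log2 difference of -0.76 (adjusted p = 0.358). When every kept probe was fitted, 1 of the 2 Top2a probes was called, and their differences were -2.38 and -1.32. When any one 9-month array or 12M-4 was left out, or with normexp background correction, 1 cell cycle gene was called in place of 7, and without 12M-3 4 were. Cdk1, Ccna2 and Top2a lost their calls without each of those arrays but 12M-3 (adjusted p up to 0.0848, 0.118 and 0.112), Top2a also without 12M-2, and Mcm10 without 9M-2 (0.0619). Within the shared slide Cdk1 and Ccna2 stood at -2.42 and -1.64.

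Of 36 interferon-induced genes 4 fell and none rose (11.1% against 6.27% of all genes, median log2 change -0.25). The immunity-related GTPase gene Irgm went from 1.95, 1.92 and 2.0 to -0.81, 0.80 and 0.09 (log2 change -1.93, SE 0.40, adjusted p = 0.0142), lowest on 12M-2, and its relative Ifgga2l1 from 4.85, 4.67 and 4.91 to 1.51, 3.38 and 2.43 (log2 change -2.37, SE 0.39, adjusted p = 0.00525). The call of Irgm ended without 9M-1 or 9M-3 (up to 0.0522), and in those fits no gene of the list was called, while 2 were without 9M-2 or 12M-4 and with normexp background correction. In the stress response of the endoplasmic reticulum 3 of 23 measured genes rose and 1 fell (17.4% against 6.27% of all genes, median log2 change 0.05). Herpud1 rose by 1.38, adjusted p = 0.00228, Ddit3, which encodes CHOP, by 0.73, adjusted p = 0.0357, and Ero1b, of disulfide formation, by 0.68, adjusted p = 0.0249. Atf4 fell by 0.74, adjusted p = 0.0149, a call that ended without 9M-1 or 9M-3 (up to 0.0704), and all 4 calls ended with normexp (adjusted p 0.0845 to 0.28). Of 38 oxidative phosphorylation genes 4 fell (10.5% against 6.27% of all genes, median -0.20). Of 46 cytosolic ribosomal protein genes 1 fell (2.17%, below the share of all genes, median -0.06). No oxidative phosphorylation gene was called when any one 9-month array was left out, and 1 was without 12M-2 or 12M-4. No heat shock (22 measured), iron and haem (18) or autophagy and lysosome gene (28) was called.

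**Figure D4:**
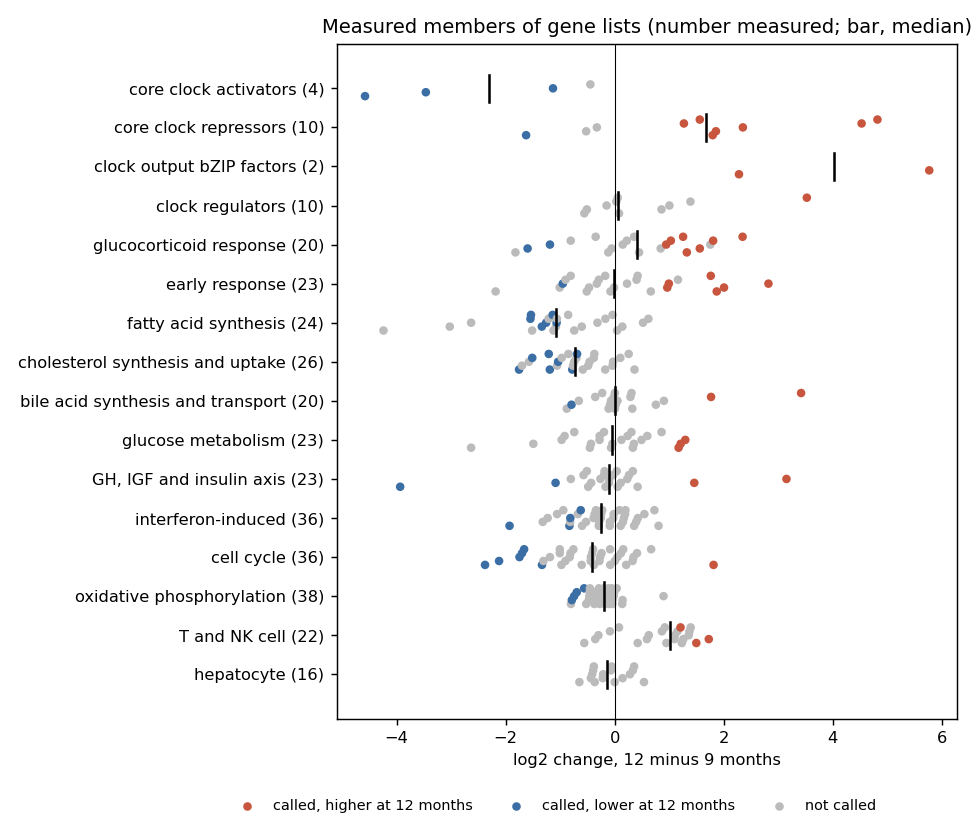
Log2 change from 9 to 12 months (x axis) of the measured members of 16 gene lists (rows, number measured in brackets). Each point is a gene, red when called higher and blue when called lower at 12 months, grey when not called, and black bars are medians. The medians of the 3 core clock lists lie farthest from 0 (-2.30, 1.68 and 4.02), fatty acid and cholesterol synthesis have medians of -1.07 and -0.72, and hepatocyte markers lie near 0.

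Hepatocyte identity genes did not pass in either direction: none of 16 was called, and their mean log2 level ranged from 7.10 to 7.14 at 9 months and from 6.91 to 7.13 at 12 months. Of 22 measured markers of T and NK cells 3 rose (13.6% against 6.27% of all genes), namely Cd6, Lat and Klrd1 (log2 changes 1.5, 1.21 and 1.72). The median log2 change of the 22 markers was 1.02. Their mean level was -2.18 to -1.82 at 9 months, -1.84 on 12M-2, -0.72 on 12M-3 and -1.01 on 12M-4, so the shift lay in 12M-3 and 12M-4 and array 12M-2 stood within the 9-month range. When any one array but 12M-2 was left out no T or NK marker was called, and without 12M-2 10 were. Within the shared slide Cd6, Lat and Klrd1 stood at 0.49, 1.19 and 0.69. The plasma cell gene Mzb1, not above background at 9 months, was at least 3.58-fold higher at 12 months (adjusted p = 0.0361, up to 0.124 when any one array but 12M-2 was left out). It was the 1 call among 8 measured B and plasma cell markers (12.5% against 6.27% of all genes). Of 8 major histocompatibility class II genes none passed, and their median log2 difference was 1.08. Cd74, which escorts class II molecules, read 2.48, 2.55 and 2.21 at 9 months and 3.20, 5.34 and 3.25 at 12 months, highest on 12M-3 (adjusted p = 0.0824). No marker of macrophages, endothelium, neutrophils, red cells, fat, pancreas or muscle was called. Of 11 cholangiocyte markers 2 fell (18.2%), and of 21 markers of stellate cells and matrix 2 did (9.52%), against 6.27% of all genes called. Epcam and Slc4a2 of the first list changed by -0.71 and -0.68 on the log2 scale, and Mmp14 and Pdgfrb of the second by -0.61 and -0.87. These calls ended without 9M-1 (adjusted p up to 0.0629, 0.0971, 0.0573 and 0.113 over the arrays left out), and Slc4a2 lost its call when any one 9-month array or 12M-4 was left out, Epcam without 9M-2 or 12M-4, Mmp14 without 9M-3, and Pdgfrb without 9M-3 or 12M-3. With normexp the calls of these 4 genes, of Mzb1 and of the 3 T and NK cell markers all ended (adjusted p 0.111 to 0.599). Red cell markers were highest on 12M-2, with a mean level of 2.06 against 0.71 to 1.22 at 9 months. The part of these cell types in the other results was not tested.

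Every 12-month array was dimmer than every 9-month array: the 75th percentile of signal, by which each array was scaled, was 239 to 262 at 9 months and 171 to 217 at 12 months. Between 58.5% and 64.3% of probes were well above background at 9 months and between 58.6% and 61.3% at 12 months, and no spot was saturated. The part of this difference in brightness in the results was not tested. The 12-month arrays varied more: the median SD over genes was 0.29 at 12 months and 0.15 at 9 months, and each 12-month array correlated with the other 2 at a mean of 0.966 to 0.978, against 0.992 to 0.995 at 9 months. Of the 1348 called genes 1339 had groups that did not overlap, which 25.8% of all genes showed, and 581 differed at least 2-fold. The count was 484, 532 and 504 without 9M-1, 9M-2 and 9M-3, and 2154, 1477 and 767 without 12M-2, 12M-3 and 12M-4. On simulated arrays of 21451 genes, each gene had 1 spread pooled over all ages, and its values were drawn independently. There 4-fold changes were called in 86 of 100 genes and 2-fold changes in 44 of 100, so a gene that changed 2-fold was often missed. The wider spread at 12 months was left out, which may make these shares too high for this comparison. Only 138 genes were called on the simulated arrays, against 1348 here. With fewer changed genes the adjustment is stricter, which may make the shares too low. Which of these weighs more was not tested.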

How the data were processed

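Values started from the deposited scanner files of 16 arrays, made by the authors with Agilent Feature Extraction 10.7.3.1 per the file headers. The intensity used was the deposited processed signal, background-subtracted by that software per the file headers. Its log2 minus the array's 75th percentile was taken, control and outlier spots were left out, spots of a probe were averaged, and a probe was kept when every array of some age had it well above background (25696 of 41012, the brightest per gene, 21488 genes). Names came from RefSeq by accession (18028 probes) or symbol (3168), and 19816 probes kept the array's name. limma 3.58.1 in R 4.3.3 fitted a mean per age over all 16 arrays, and p-values were adjusted by Benjamini-Hochberg, with 0.05 as the threshold. The number of arrays limits the precision.

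The authors' deposited log2 series table, whose normalization is not given in the sources used here, served as an alternative. Its columns correlated at 0.997 or more with these values, which sets a log2 scale and the direction, and its column medians were 4.92 to 4.94, a centring whose rule stays unknown. Other alternatives were quantile normalization, normexp with an offset of 50, other filters and probe rules, slide, scan session and replicate blocks, array weights and leaving out each array.

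Named genes were the 15 largest rises and 15 largest falls among called genes with a symbol above background on all 6 arrays, and every measured clock gene. Added to these were up to 4 called members with the smallest adjusted p of each other list, and up to 3 each way measured at 1 age alone. Others named, among them uncalled members, were chosen after their values were seen. A few list members are not reported here by name. The comparison, members and lists were chosen with earlier results of these data known, so their counts are no independent support. The fit was tested on simulated data. The label kit named in the protocol is one for microRNA, which these gene arrays do not measure, and how the RNA was labelled was not settled.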

Additional observations from a re-analysis of the deposited data

How the results depend on the processing

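All counts are of calls in limma with Benjamini-Hochberg adjustment. The count of clock genes, 13 of 16, ranged from 8 to 13 over the alternatives, with the 8 from normexp background correction. It was 10 to 11 when each array was left out in turn. The count over all genes, 1348, depended much more on the setting. It was 166 with normexp, where 38.55% of calls were higher at 12 months against 50.59% in the reported fit, 685 without a filter on dim probes, 221 in a fit of the 6 arrays alone and 581 with a 2-fold minimum. It was 5837 with slide as a fixed block, 4829 with slide as a random block, 4368 with scan session as a block, 3111 within slide 2, 3299 within scan session 1 and 4985 with array weights. Leaving out each array in turn gave 484 to 2154. Other normalization, filter and probe settings gave 1285 to 1446. Of the 1348, 1245 were also called with quantile normalization and 161 with normexp. Clock was the only named gene to change direction, to 0.0443 with normexp. Of 97 named genes that were called, 42 kept their call without each array. Ages share only 2 replicate numbers, 2 and 3, whose same-numbered arrays correlated at -0.2998 and -0.1796 in their deviations from the age means, so the numbers pair no samples. With the replicate number as a block 365 genes and 9 clock genes were called. Signal near background limits Per3 and Clock, whose 9- or 12-month values are partly not well above it. The cause of these differences between settings was not tested.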
